A study of Mus musculus with 22 samples.

Results

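The question here was whether Ly6Chi monocytes and alveolar macrophages of mutant lungs changed their transcripts differently 3 d after induction of SP-C I73T. For each gene, the 3 d response was the log2 fold change from control to 3 d, and the interaction was the monocyte response minus the macrophage response. A positive interaction therefore means that 3 d monocytes stood higher against their own control than 3 d macrophages did against theirs. The genes described were the protein-coding genes with a mean of 10 CPM (counts scaled to a common library size) or more in at least 1 of the 4 groups, which were 9436 of the 31116 genes measured in both cell types. *Pgap3* was the last gene inside this limit with a highest group mean of 10.01 CPM, and *Trim32* the first outside with 9.99 CPM.

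All mice were C57BL/6 and carried the SP-C I73T mutant, a surfactant protein C allele. By the study's account its mutant protein is made at a low level before induction, with moderate inflammation, and at a higher level once tamoxifen switches on an oestrogen receptor controlled Flp-O recombinase in the Rosa26 locus. Of the 22 samples of the series, 15 entered these comparisons: 4 control samples and 4 samples at 3 d of CD11b+ Ly6Chi monocytes, and 4 control samples and 3 samples at 3 d of SigF+CD11b- alveolar macrophages. The 3 d injury mice had received a single tamoxifen gavage at 8 to 12 weeks of age. The labels call the control mice untreated and the account of the sequencing calls them oil-treated SP-C I73T mice, whereas the general methods pool oil-treated mutants with tamoxifen-treated mutants that lack Flp-O. With oil-treated controls, tamoxifen itself and mutant induction cannot be told apart. Monocytes were sorted from digested lung after exclusion of resident macrophages, eosinophils, Ly6G+ neutrophils and CD3+ lymphocytes, a gate that leaves natural killer (NK) cells without a named exclusion marker. Nothing states that the samples of a group came from separate mice, so the p-values measure the spread between these samples. In bulk RNA, fewer cells that express a gene and less of its RNA per cell cannot be told apart.

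Alveolar macrophages live in the airspace for long periods, clear surfactant lipid and are held in a quiet state by signals from the epithelium. Ly6Chi monocytes arrive from blood, express *Ly6c2*, *Ccr2* and *Itgam*, and can mature into macrophages, dendritic-like cells or Ly6Clow patrolling monocytes. Both cell types sense damaged epithelium through NF-kB, which induces cytokines, adhesion molecules and its own inhibitors.

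The libraries held 10692871 to 28789639 counts. The 3 d monocytes stood apart from all other groups in this comparison in the breadth of weak signal: of the 31116 genes in both tables, 28185 to 28677 had at least 1 count, against 21403 to 24469 in control monocytes and 21490.0 to 27603 in macrophages. Of the counts on these genes, 8.19% to 10.5% lay outside the 9436 described, against 3.72% to 4.31% in control monocytes and 4.82% to 5.58% in macrophages. The deposited macrophage table holds 31134 genes and that of the monocytes 55421, so only shared genes are compared. In the macrophages, 3 d replicate 2 lay closest to the controls: it was the lowest of the 3 in 94 of the 111 genes that rose and the highest in all 16 that fell. Markers of the gates fitted the labels, with summed levels of the Ly6Chi monocyte markers of 8844 to 14064 CPM in control and 11623 to 13480.0 CPM in 3 d monocytes, against 24.2 to 46.99 CPM in control and 73.9 to 191 CPM in 3 d macrophages. The 9 macrophage gate markers separated the cell types less, with 8368 to 15678 CPM in control and 6059 to 12480.0 CPM in 3 d monocytes against 22416 to 26111 CPM in control and 21914 to 45581 CPM in 3 d macrophages. *Chil3*, which many monocytes express, made up most of the monocyte sum. Without *Chil3* the sum was 602 to 1454 CPM in control and 265 to 635 CPM in 3 d monocytes and 5642 to 6227 CPM in control and 6135 to 7125 CPM in 3 d macrophages, and 5 of the 9 markers (*Siglecf*, *Marco*, *Pparg*, *Fabp4* and *Ear2*) fell in monocytes. Neutrophil markers summed to 572 to 862 CPM in control and 668 to 2353 CPM in 3 d monocytes, eosinophil markers to 6.84 to 9.76 CPM in control and 11.2 to 86.4 CPM in 3 d macrophages, and the platelet and erythroid sum had lower medians at 3 d in both cell types. None of the markers in the 11 lists used was at 0 in a whole group. All 15 libraries were *Xist*-positive with 0 to 3 counts of Y-linked genes, whereas the 14 d libraries, which entered only the estimate of spread, had 433 to 3033 such counts.

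The 2 cell types differed in 979 of the 9436 genes. The interaction was higher for 602 genes (6.38%, against 18.5% of all 26623 genes tested) and lower for 377 (4%, against 1.84% of all genes tested), at a Benjamini-Hochberg adjusted p of edgeR's quasi-likelihood test (edgeR q) under 0.05 and a fold over 1.5. In monocytes, 1105 genes rose (11.7%, against 45% of all tested) and 535 fell (5.67%, against 2.61%). Macrophages showed 111 genes that rose (1.18%, against 0.556% of all tested) and 16 that fell (0.17%, against 0.0676%). Of the 17187 other genes tested, which lay under 10 CPM in every group or were not protein-coding, 4321 (25.1%) were called higher and 113 (0.657%) lower. The median interaction was 0.02 over the 9436 genes and 0.85 over all genes tested.

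Most called genes had a response that passed in a single cell type. Of the 602 higher genes, 552 rose in monocytes and did not pass in macrophages, 3 fell in macrophages alone, 1 rose in both and 45 passed in neither. *Hjurp* was the only gene that rose in monocytes and fell in macrophages. Of the 377 lower genes, 156 fell in monocytes alone, 58 rose in macrophages alone, 19 did both, 4 rose in both cell types and 140 passed in neither. Without an interaction, 22 genes rose in both cell types and 7 fell in both. These counts are capped, since only 111 genes rose and 16 fell in macrophages. As shares of those genes they exceed the 11.7% of all 9436 genes that rose and the 5.67% that fell in monocytes. Whether this excess is beyond sampling error was not tested. Pearson r between the responses was 0.15 over the 9436 genes and 0.31 over the 6684 with at least 10 CPM in both control groups.

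**Figure D1:**
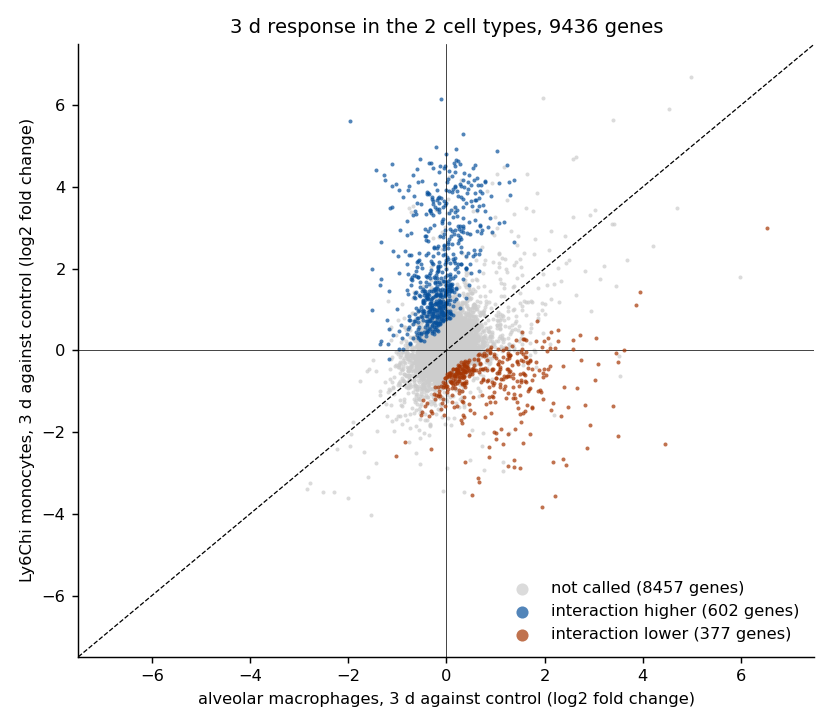
Each point is a gene, with its 3 d response in alveolar macrophages on the x axis and in Ly6Chi monocytes on the y axis (log2 fold change), and the dashed line marks equal responses. The 602 genes with a higher interaction mostly lie on the upper part of the y axis near a macrophage response of 0, and the 377 lower genes lie to the right of and below the line.

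The split between higher and lower calls depended on how libraries were scaled. Scaling factors from the described genes gave 61.5% higher calls, library totals alone gave 68.1% (663 higher, 310 lower), upper-quartile scaling 48.2% (468 and 503), TMM factors from all tested genes 35.4% (430 and 784) and DESeq2 size factors from all tested genes 30.0% (416 and 969). The last 3 scalings moved the median interaction by -0.16, -0.23 and -0.28 (log2). None of the 131 called genes that were selected for naming changed sign under any scaling or other alternative. These genes were selected as called, past a fold limit larger than these shifts of the median. A change of sign from scaling was therefore nearly excluded, and its absence does not test the dependence on scaling.

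Higher interactions followed the level in control monocytes. Of the 602 higher genes, 518 had a control monocyte mean under 10 CPM and 428 a mean under 5 CPM, whereas 341 of the 377 lower genes stood at 10 CPM or more there. Of all 9436 genes, 7223 stood at 10 CPM or more in control monocytes and 2213 under it. In the 318 genes under 1 CPM in control monocytes, 56.9% were called higher and 0.943% lower, and in the 1673 genes at 100 CPM or more 0.658% were called higher and 8.07% lower. By the inclusion limit, a gene under 10 CPM in control monocytes had to reach 10 CPM in another group. Of such genes, 303 reached 10 CPM in 3 d monocytes alone, and of these 153 were called higher. How far this limit shapes the shares was not tested. The median exonic length was 7710.5 bases for higher genes, 3913 for lower genes and 4514 for genes not called. Among the 6684 genes with at least 10 CPM in both control groups, 83 were called higher and 197 lower. Both are smaller shares than the 6.38% and 4% of all 9436 genes, and the higher calls dropped more.

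**Figure D2:**
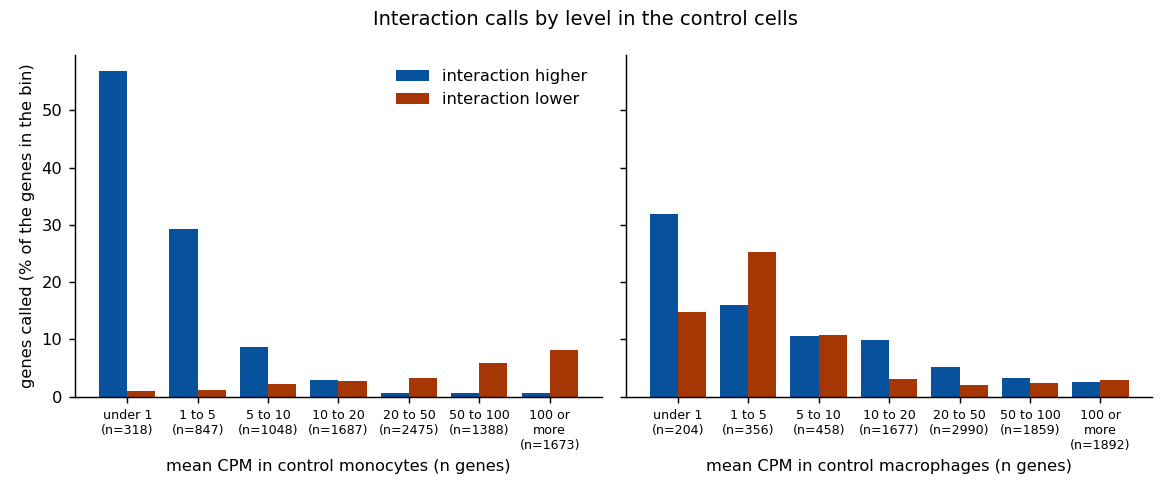
Bars give the percentage of genes called higher (blue) or lower (brown) in the interaction, in bins of the mean CPM in control monocytes (left) or control macrophages (right), with the number of genes under each bin. Higher calls drop from 56.9% in the lowest monocyte bin to 0.658% in the highest, while lower calls climb from 0.943% to 8.07%.

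The largest higher interactions belonged to genes that were near the detection limit in control monocytes, several of them known from neurons or epithelium. In order of size they included *Dlec1*, *Ascl4*, *Nlgn3*, *Grin3a*, *Adamts15*, *Rorb*, *Thsd4*, *Frmpd3*, *Iqgap3*, *Fat2* and *Elavl4*. Of these, *Nlgn3*, *Grin3a*, *Adamts15*, *Rorb*, *Thsd4*, *Frmpd3*, *Fat2* and *Elavl4* reached 10 CPM in 3 d monocytes alone. Only the group in which they were high brought them within the inclusion limit. Their levels in the other groups were low, so the order of size is uncertain. *Rorb* lost its call with a block for the sample number (5.51, q = 0.056), *Adamts15* without macrophage control replicate 2 (4.02, q = 0.18) and *Elavl4* in 3 of the 15 fits that each left out 1 library. *Ascl4*, a helix-loop-helix transcription factor best known from skin, had no count in any control monocyte library and 5 to 10 counts at 3 d, while macrophages held 17.3, 16.8, 18.2 and 17.2 CPM in the control and 14.5, 16.4 and 17.3 CPM in the 3 d libraries. *Dlec1*, linked to cilia, had 1 to 3 counts in control and 45 to 87 counts in 3 d monocytes. In macrophages, *Dlec1* lay at 33.95, 17.3, 33.1 and 30.96 CPM in controls and 3.85, 14.6 and 3.62 CPM at 3 d, and these groups did not overlap. With 3 counts as the floor for a library, which covers counting error only, no fold is given for these control monocytes. *Ascl4* and *Dlec1* share 28 and 224 exonic bases with an opposite-strand gene (*Rtcb* and *Acaa1b*), and use of strand in the counting is not stated.

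*Iqgap3*, a scaffold of dividing cells, was measured at 1.22, 0.768, 1.42 and 1.16 CPM in control and 19.6, 14.1, 22.2 and 22.1 CPM in 3 d monocytes. Macrophages held 7.49, 7.54, 10.1 and 14.4 CPM in controls and 2.80, 6.07 and 5.81 CPM at 3 d. Its groups separated in both cell types in opposite directions. The interaction of *Iqgap3* was 5.10 ± 0.52 (SE, edgeR q = 2.6e-06) on the log2 scale, although the macrophage response of -1.02 ± 0.36 (q = 0.30) did not pass. The synaptic adhesion gene *Nlgn3* (12.7, 10.02, 22.8 and 14.4 CPM in 3 d monocytes) and the glutamate receptor subunit *Grin3a* (7.05, 14.5, 17.3 and 9.56 CPM) stood at or under 1.37 CPM in the control monocytes and in all control and 3 d macrophages. Of the *Nlgn3* exons, 3823 bases are shared with the same-strand gene *Gm21986*, so its counts are uncertain.

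At levels where both control groups were well counted, the genes with higher interactions included *Cfp*, *Trio*, *Hjurp* and *Siglece*. The genes of this group were chosen after their values were seen, as the 12 largest in each direction with at least 10 CPM in both controls. A further condition was that their 3 d changes did not overlap between the cell types. *Cfp* encodes properdin, the stabiliser of the alternative complement convertase (chrX:20925454-20931555). Monocytes held 285, 420.4, 318 and 160.1 CPM in controls and 753, 529, 569.7 and 513 CPM at 3 d, and macrophages 167, 163, 181 and 156 CPM in controls and 27.3, 107 and 41.9 CPM at 3 d. The groups did not overlap in either cell type and moved apart. The interaction of *Cfp* was 2.51 ± 0.47 (SE, edgeR q = 0.0019). *Cfp* rose in monocytes by 0.998 ± 0.31 (q = 0.012), and the macrophage response of -1.51 ± 0.35 (q = 0.052) narrowly missed the threshold.

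*Hjurp*, the chaperone that loads centromeric histone (chr1:88262471-88277633), lay at 63.8, 52.9, 54.7 and 50.4 CPM in control and 86.3, 77.7, 84.5 and 92.3 CPM in 3 d monocytes. In macrophages it lay at 60.9, 57.8, 71.1 and 77.2 CPM in controls and 25.6, 45.9 and 34.3 CPM at 3 d. Controls of the 2 cell types covered a like range and the 3 d groups left it in opposite directions. The interaction of *Hjurp* was 1.54 ± 0.27 (SE, edgeR q = 7.0e-04). *Siglece*, an inhibitory sialic acid receptor (chr7:43651070-43660161), fell in macrophages from 71.8, 66.4, 83.5 and 74.5 CPM to 26.8, 44.4 and 17.3 CPM. Monocyte values overlapped (41.6, 40.8, 57.9 and 33.1 CPM in controls and 63.4, 39.6, 53.1 and 47.7 CPM at 3 d), and the interaction was 1.56 ± 0.34 (SE, edgeR q = 0.0039).

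*Trio*, a guanine nucleotide exchange factor for small GTPases (chr15:27730651-28025848), rose in monocytes from 24.4, 15.1, 18.98 and 26.4 CPM to 67.9, 66.4, 93.3 and 65.4 CPM. Every 3 d value was more than every control value, while macrophages overlapped (78.1, 83.3, 55.5 and 63.7 CPM in controls and 63.3, 93.8 and 48.996 CPM at 3 d). The interaction was 1.82 ± 0.29 (SE, edgeR q = 4.0e-04). *Itga1*, the integrin alpha 1 chain that binds collagen, had a monocyte response of 1.24 ± 0.21 (q = 8.6e-05) and a macrophage response of -0.43 ± 0.23 (q = 0.67), with 685 exonic bases shared with *Gm49395* on the same strand. The tight-junction molecule *F11r* stood at 14.9, 16.8, 28.1 and 24.5 CPM in control and 93.05, 70.04, 48.4 and 42.3 CPM in 3 d monocytes and at 141 to 244 CPM in macrophages. The interaction of *F11r* was 1.53 ± 0.39 (edgeR q = 0.0096). The autophagy-related *Zfyve26*, the ARF exchange factor *Iqsec1*, the complement C1r-like protease *C1rl* and *Tns1* had interactions of 1.55 ± 0.27 (edgeR q = 7.5e-04), 1.68 ± 0.32 (edgeR q = 0.0015), 1.77 ± 0.47 (edgeR q = 0.013) and 2.05 ± 0.58 (edgeR q = 0.020). *D10Wsu102e* rose in monocytes from 19.7, 21.4, 17.2 and 19.9 CPM to 49.3, 48.2, 52.6 and 61.5 CPM, lay at 26.3 to 31.9 CPM in macrophages and had the lowest adjusted p of the group, with an interaction of 1.55 ± 0.20 (edgeR q = 4.1e-05). *Cd300lg* (1.51 ± 0.53, edgeR q = 0.048) lost its call in 13 of the 15 fits that each left out 1 library and with a block for the sample number. The call for *Tns1*, a focal adhesion protein, was lost without macrophage 3 d replicate 1 (1.97, q = 0.056) or replicate 3 (1.87, q = 0.068).

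**Figure D3:**
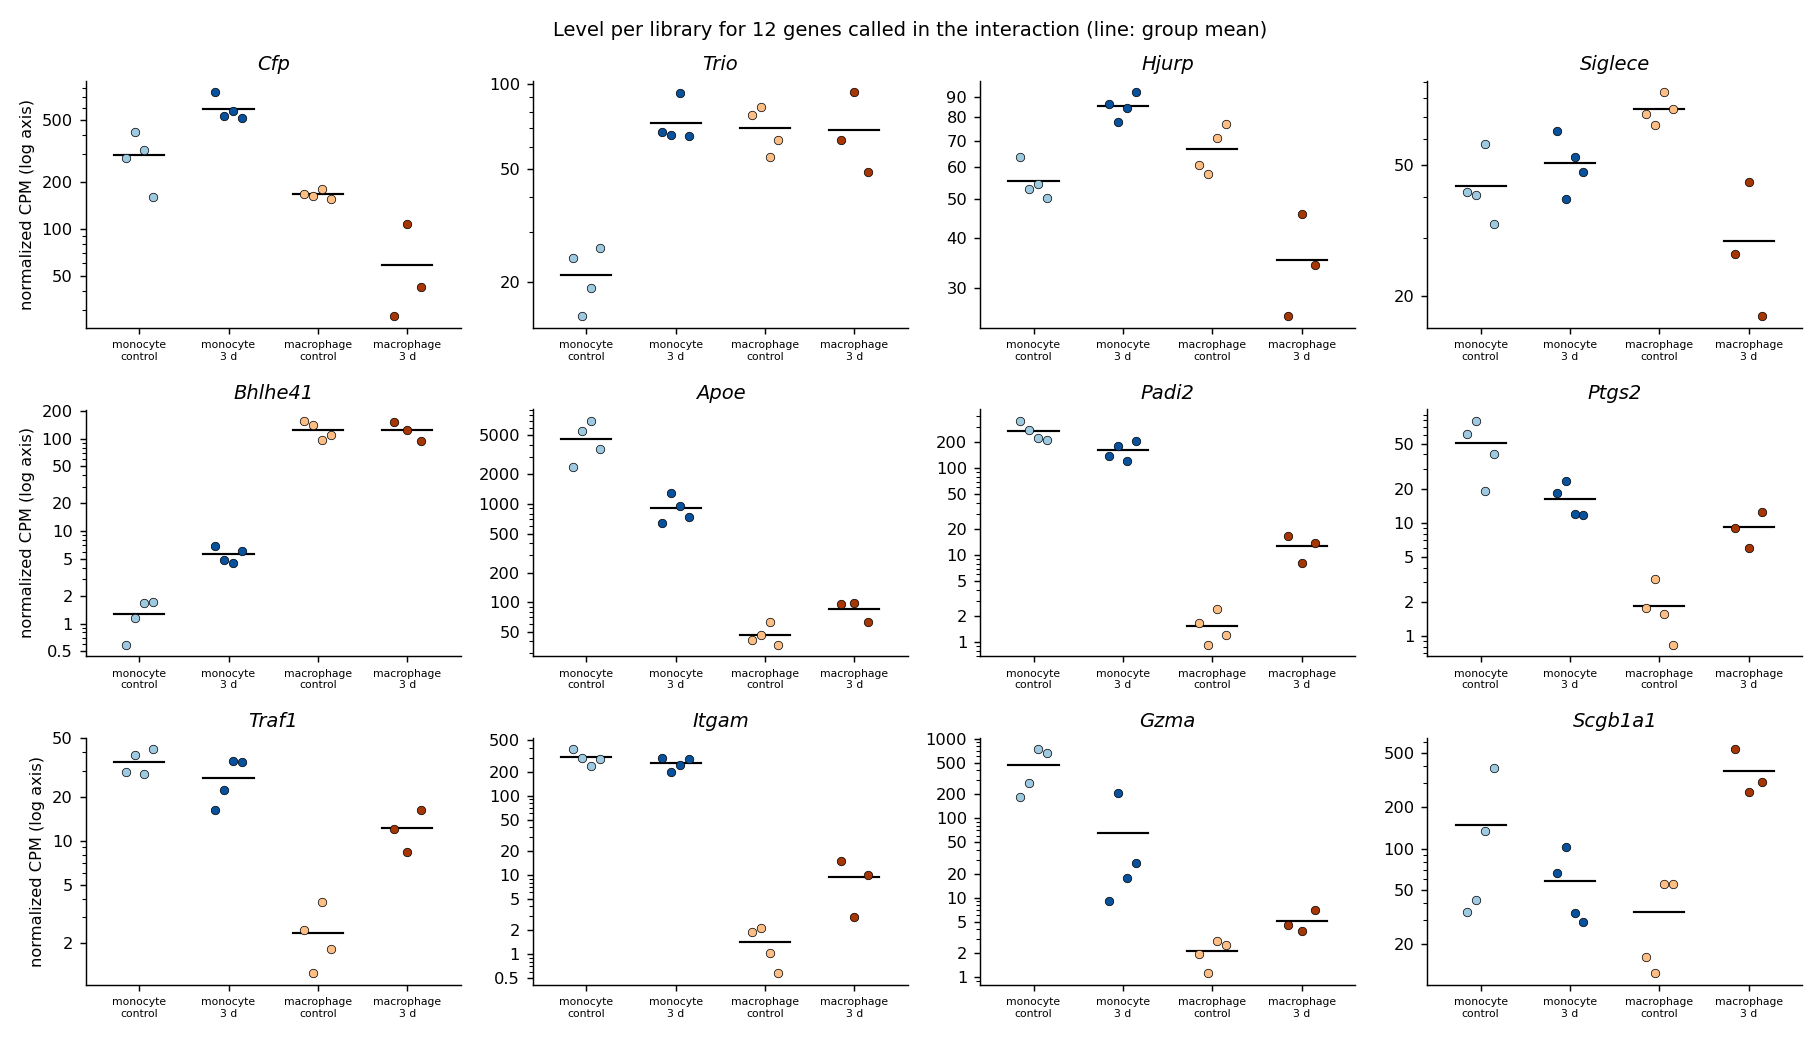
Each panel shows the normalized CPM of a gene (log axis) in the monocyte libraries (4 controls, then 4 at 3 d) and the macrophage libraries (4 controls, then 3 at 3 d), with a line at the group mean. *Cfp* and *Hjurp* part in opposite directions, *Trio* moves in monocytes alone, and *Padi2* falls in monocytes (212 to 351 CPM in controls) while it rises in macrophages (from 0.928 to 2.42 CPM to 8.02 to 16.4 CPM).

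Among the 28 gene lists, cell cycle and DNA replication had the highest median interaction, 0.56 over 44 genes, with 4 called higher (9.09%) and 1 lower (2.27%). Over all 9436 genes these shares were 6.38% and 4%, and among those at 1 to 5 CPM in control monocytes 29.2% were called higher. Its median stayed positive under all scalings tried. *Pole*, the catalytic subunit of DNA polymerase epsilon, was counted at 1.76, 1.15, 1.496 and 1.002 CPM in control and 13.7, 16.5, 22.3 and 13.98 CPM in 3 d monocytes and at 6.51 to 11.2 CPM in macrophages. The interaction of *Pole* was 3.61 ± 0.60 (SE, edgeR q = 6.1e-04). *Uhrf1*, which couples DNA methylation to replication, gave 2.03 ± 0.48 (edgeR q = 0.0070) and the kinetochore motor *Cenpe* 2.20 ± 0.54 (edgeR q = 0.0076). *Tpx2*, a spindle assembly factor, gave 1.49 ± 0.48 (edgeR q = 0.032) but was lost in 5 of the 15 left-out fits and under 2 scalings. The sliding clamp *Pcna* went the other way at -0.64 ± 0.22 (edgeR q = 0.038), a call lost when samples were blocked by number (-0.63, q = 0.086), in 8 of the 15 left-out fits, with library totals alone and in a fit of the 15 samples. *Pole*, *Uhrf1*, *Cenpe* and *Tpx2* all had control monocyte means under 5 CPM, as did 428 of the 602 higher genes. *Pole* shares 78 exonic bases with an opposite-strand gene, *Gm15792*.

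Other lists had scattered higher calls. *Gclm*, the modifier subunit of the glutathione-synthesis enzyme, was among the 2 of 28 NRF2 genes called higher (7.14%, against 6.38% of all 9436 genes). Monocytes lay at 1.93, 2.41, 3.27 and 3.25 CPM in controls and 11.9, 11.2, 9.33 and 6.35 CPM at 3 d and macrophages at 30.5 to 37.7 CPM in all 7 libraries. The interaction of *Gclm* was 1.76 ± 0.41 (SE, edgeR q = 0.0059). *Bhlhe41*, a transcription factor of resident alveolar macrophages, was the only called gene of the 31 on the alveolar macrophage list (3.23% higher, against 6.38% of all 9436 genes). It stood at 0.587, 1.15, 1.65 and 1.72 CPM in control and 6.89, 4.92, 4.55 and 6.03 CPM in 3 d monocytes, against 94.2 to 156 CPM in macrophages without separation of the groups. The interaction of *Bhlhe41* was 2.15 ± 0.41 (SE, edgeR q = 0.0014). Both share exonic bases with other genes, 244 on the same and 296 on the opposite strand for *Gclm* (*Gm17494*) and 1280 on the opposite strand for *Bhlhe41* (*Gm43909*). Coagulation factor X, *F10*, was high throughout and rose in monocytes from 167, 199.8, 206 and 144 CPM to 494, 405, 584 and 352 CPM. The interaction of *F10* was 1.11 ± 0.25 (SE, edgeR q = 0.0043). The neutrophil-attracting chemokine *Cxcl3* gave 2.17 ± 0.70 (edgeR q = 0.034), and this call was lost in 9 of 15 left-out fits, under 3 scalings and with a block for the sample number (1.67, q = 0.055).

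On the lower side, 19 genes fell in monocytes and rose in macrophages. The description follows the 6 with the largest interaction and 3 others, *Flt3*, *Ddit4* and *Cyfip2*, chosen after their values were seen. *Padi2*, which turns arginine into citrulline in proteins (chr4:140906344-140952586), stood at 351, 275, 222 and 212 CPM in control and 137, 182, 122 and 206 CPM in 3 d monocytes. Macrophages held 1.66, 0.928, 2.42 and 1.19 CPM in controls and 16.4, 8.02 and 13.7 CPM at 3 d. Neither pair of groups overlapped. It fell in monocytes by 0.71 ± 0.23 (q = 0.013) and rose in macrophages by 3.02 ± 0.29 (q = 1.5e-06). The interaction of *Padi2* was -3.73 ± 0.37 (SE, edgeR q = 2.3e-06). The level of *Padi2* in 3 d macrophages still lay under that in every monocyte library.

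Several of the 19 are signalling genes of lymphocytes and activated myeloid cells. *Tnfrsf9*, the costimulatory receptor 4-1BB, measured 6.37, 14.04, 35.7 and 29.9 CPM in control and 1.76, 8.66, 3.16 and 2.95 CPM in 3 d monocytes. Macrophages held 0.666, 0.433, 1.696 and 0.674 CPM in controls and 6.71, 3.73 and 9.01 CPM at 3 d. The interaction of *Tnfrsf9* was -5.25 ± 0.76 (SE, edgeR q = 1.7e-04). Control and 3 d monocytes overlapped for *Tnfrsf9*, since 3 d replicate 2 exceeded control replicate 1. *Cd7*, a surface glycoprotein of T and NK cells, had separate groups in both cell types, at 16.9, 18.5, 19.5 and 16.1 CPM in control and 2.62, 10.3, 2.64 and 4.298 CPM in 3 d monocytes. Macrophages held 0.888, 0.6803, 2.26 and 0.5705 CPM in controls and 10.03, 5.496 and 9.85 CPM at 3 d, and the interaction was -4.76 ± 0.63 (edgeR q = 5.4e-05). For *Il18rap*, the signalling chain of the interleukin-18 receptor, monocytes lay at 14.8, 17.7, 33.6 and 34.97 CPM in controls and 9.78, 14.9, 6.68 and 5.26 CPM at 3 d and macrophages at 2.22, 3.52, 2.62 and 2.697 CPM in controls and 14.6, 7.33 and 14.6 CPM at 3 d, with separation in macrophages only and an interaction of -3.60 ± 0.49 (edgeR q = 6.3e-05). *Stat4*, a transducer of interleukin-12 signals, separated in both, at 15.1, 17.6, 14.8 and 15.2 CPM in control and 4.65, 5.898, 6.17 and 7.25 CPM in 3 d monocytes. Macrophages held 1.66, 1.36, 1.799 and 0.5705 CPM in controls and 5.48, 4.11 and 13.2 CPM at 3 d, and the interaction was -3.87 ± 0.59 (edgeR q = 2.2e-04). Of the *Stat4* exons, 1033 bases are shared with *Gm28177* on the same strand, and *Cd7* and *Padi2* share 122 and 149 bases with opposite-strand genes.

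Levels of T and NK cell markers are given beside these genes. The 13 T and NK cell markers summed to 582, 922, 2442 and 2009.6 CPM in control monocytes and 41.2, 662, 90.5 and 99.2 CPM in 3 d monocytes, so the sum was lower in all 3 d libraries except replicate 2, which overlapped the controls. In macrophages the same sum was 18.1, 20.9, 48.9 and 19.7 CPM in controls and 32.8, 53.8 and 60.3 CPM at 3 d, with overlap. The part of these cells in *Tnfrsf9*, *Cd7*, *Il18rap* and *Stat4* was not tested.

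*Ptgs2*, the inducible cyclooxygenase of prostaglandin synthesis (chr1:150100031-150108227), fell in monocytes from 61.2, 79.5, 19.2 and 40.2 CPM to 18.4, 23.2, 11.9 and 11.6 CPM and rose in macrophages from 1.78, 3.15, 1.54 and 0.8298 CPM to 9.04, 5.94 and 12.5 CPM. Monocyte groups overlapped at their edges (19.2 CPM in the lowest control, 23.2 CPM in the highest 3 d library), and macrophage groups did not. The interaction was -3.95 ± 0.67 (SE, edgeR q = 9.6e-04). The stress gene *Ddit4*, an inhibitor of mTORC1, had interaction -3.47 ± 0.57 (edgeR q = 5.1e-04), the cytokine receptor *Flt3* of dendritic cell precursors -3.27 ± 0.44 (edgeR q = 6.3e-05), and *Cyfip2*, part of the actin-regulating WAVE complex, -2.30 ± 0.31 (edgeR q = 6.3e-05). *Flt3* fell in monocytes from 61.996, 62.4, 73.6 and 69.4 CPM to 16.1, 24.1, 21.1 and 18.3 CPM, with no overlap. Beside it, the summed level of 9 dendritic cell markers, which include *Flt3*, ran from 267 to 420.1 CPM in control to 67.6 to 322 CPM in 3 d monocytes and from 35.003 to 54.1 CPM in control to 125 to 177 CPM in 3 d macrophages, and its part in the result was not tested.

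The NF-kB list held 39 measured genes, with 6 called lower (15.4%, against 4% of all 9436 genes), 1 called higher (2.56%, against 6.38%) and a median interaction of -0.51. In macrophages 5 of these genes rose and none fell, and in monocytes 7 rose and 4 fell. Over all 9436 genes, 1.18% rose and 0.17% fell in macrophages, and 11.7% rose and 5.67% fell in monocytes. *Traf1*, an NF-kB-induced adaptor (chr2:34941750-34961772), rose in macrophages from 2.44, 1.24, 3.804 and 1.82 CPM to 11.96, 8.402 and 16.2 CPM without overlap. Monocytes overlapped at 29.5, 38.4, 28.7 and 42.1 CPM in controls and 16.1, 22.1, 34.7 and 34.4 CPM at 3 d, and the interaction was -2.74 ± 0.43 (SE, edgeR q = 2.8e-04). The inhibitor *Nfkbia*, itself induced by NF-kB, lay at 136, 137, 103 and 144 CPM in control and 322, 222 and 177 CPM in 3 d macrophages and 358 to 498 CPM in all monocyte libraries. The interaction of *Nfkbia* was -0.85 ± 0.26 (SE, edgeR q = 0.024). The deubiquitinase *Tnfaip3* gave -1.42 ± 0.42 (edgeR q = 0.022) and *Il1b*, which encodes interleukin-1 beta, -2.47 ± 0.80 (edgeR q = 0.038). *Nfkbia* and *Tnfaip3* lost the call without macrophage 3 d replicate 1 (-0.58, q = 0.11, and -1.28, q = 0.059), and *Il1b* in 10 of the 15 left-out fits.

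Some inflammatory genes rose in macrophages without an interaction call. The growth factor *Csf1* stood at 2.88, 4.58, 2.31 and 1.61 CPM in control and 36.2, 15.2 and 42.3 CPM in 3 d macrophages. Monocytes held 3.06, 4.33, 6.104 and 3.53 CPM in controls and 6.52, 6.33, 29.1 and 9.36 CPM at 3 d. *Csf1* rose in both cell types, and its interaction of -1.88 ± 0.82 (SE, edgeR q = 0.11) did not pass. *Il6*, which encodes interleukin-6, reached 34.1, 23.9 and 36.3 CPM in 3 d macrophages from 3.16, 8.84, 1.799 and 2.64 CPM and lay at 14.9, 15.1, 5.43 and 13.3 CPM in control and 33.1, 12.5, 26.5 and 23.6 CPM in 3 d monocytes. The interaction of *Il6* was -1.97 ± 0.70 (SE, edgeR q = 0.051). Macrophage groups were apart for both genes. For *Cd83*, a marker of maturing antigen-presenting cells, the lower interaction of -1.93 ± 0.49 (SE, edgeR q = 0.011) came with a fall in monocytes from 184, 256, 96.6 and 194 CPM to 34.9, 36.8, 66.1 and 130.2 CPM.

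Classical monocyte identity genes had the second lowest median of the 28 lists, -1.06 over 30 genes, with 10 called lower (33.3%, against 4% of all 9436 genes) and 1 higher. This list mixes genes that rose from a very low level in macrophages with genes that fell in monocytes. *Itgam*, the CD11b chain used to gate the monocytes and to exclude cells from the macrophages (chr7:128062640-128118491), was 1.89, 2.16, 1.03 and 0.5705 CPM in control and 14.9, 2.97 and 10.02 CPM in 3 d macrophages. Monocytes held 387, 301, 235 and 295 CPM in controls and 302, 198, 243 and 294 CPM at 3 d with overlap, and the interaction was -2.97 ± 0.53 (SE, edgeR q = 0.0014). The 3 d macrophage levels of *Itgam* were thus higher than in every control and under every monocyte library. *Itgam* shares 3450 exonic bases with *Gm49368* on the same strand.

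The same holds for *Plac8*, a small cysteine-rich protein of monocytes, with 7.32, 8.596, 7.299 and 3.22 CPM in control and 32.1, 14.03 and 72.1 CPM in 3 d macrophages and 2350.3 to 3728 CPM in monocytes, with an interaction of -2.54 ± 0.60 (edgeR q = 0.0090). For both *Itgam* and *Plac8*, macrophage 3 d replicate 2 was the lowest 3 d library. *Ms4a4c* (-2.33 ± 0.55, edgeR q = 0.0076) and the neutrophil and monocyte antigen *Cd177* (-3.53 ± 0.91, edgeR q = 0.014) lost their calls with a block for the sample number (-2.29, q = 0.054, and -3.06, q = 0.096), and *Cd177* also without macrophage 3 d replicate 1 (-2.14, q = 0.086). *Ifitm3*, an interferon-induced block to virus entry, moved from 1.78, 1.73, 3.598 and 2.697 CPM to 8.34, 4.42 and 11.4 CPM in macrophages, against 4385 to 6861 CPM in monocytes. The interaction of *Ifitm3* was -1.94 ± 0.38 (edgeR q = 0.0021). *Ly6c2*, the gating antigen itself, was 1.22, 2.04, 2.62 and 1.19 CPM in control and 2.74, 2.15 and 4.97 CPM in 3 d macrophages, with overlap and an interaction of -0.39 ± 0.43 (edgeR q = 0.56).

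Summed over the 7 monocyte gate markers, which include *Itgam*, *Plac8* and *Ly6c2*, macrophages held 46.99, 38.2, 44.7 and 24.2 CPM in controls and 108, 73.9 and 191 CPM at 3 d. The groups did not overlap, and replicate 2 was again the lowest at 3 d. How far monocytes within the macrophage gate account for these genes was not tested.

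**Figure D4:**
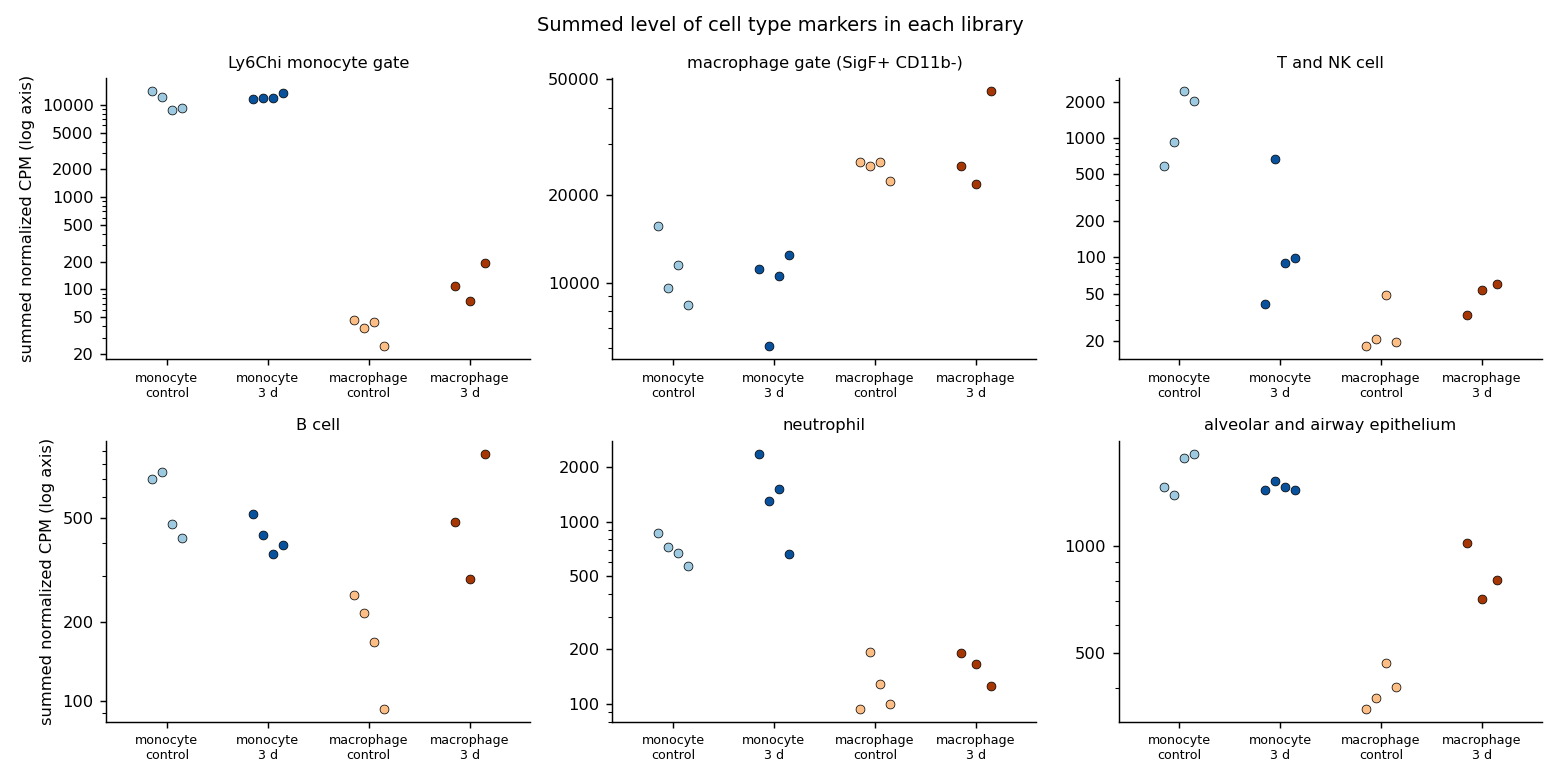
Each panel shows the summed normalized CPM (log axis) of a list of cell type markers in each library of the 4 groups. In macrophages, the monocyte gate sum moves from 24.2 to 46.99 CPM in controls to 73.9 to 191 CPM at 3 d, and in monocytes the T and NK cell sum moves from 582 to 2442 CPM to 41.2 to 662 CPM.

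A further group of lower genes fell in monocytes while macrophages did not pass. *Apoe*, which carries lipid out of cells (chr7:19696109-19699188), fell from 2387, 5483, 7061 and 3672 CPM to 639, 1282, 958 and 743 CPM in monocytes. Macrophages lay far under this, at 41.1, 46.5, 62.5 and 36.6 CPM in controls and 95.4, 98.1 and 63.3 CPM at 3 d, also without overlap but without passing the test (0.88 ± 0.39, q = 0.55). The interaction was -3.24 ± 0.54 (SE, edgeR q = 0.0010). *Cx3cr1*, the fractalkine receptor that is highest on patrolling monocytes, fell from 1219.8, 758, 552 and 584 CPM to 217, 235, 182 and 407 CPM, with 0.570 to 1.83 CPM in macrophages and an interaction of -1.91 ± 0.51 (SE, edgeR q = 0.013). Without macrophage 3 d replicate 2 that call was lost (-1.64, q = 0.057).

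*Ace*, the angiotensin-converting enzyme, and *Eno3*, a muscle-type enolase, are also known from patrolling monocytes and gave -2.004 ± 0.56 (edgeR q = 0.019) and -2.08 ± 0.45 (edgeR q = 0.0037). Both fell in monocytes, *Ace* from 108, 153, 347 and 396 CPM to 37.8, 119, 79.4 and 86.7 CPM with overlap, and *Eno3* from 119, 125, 173 and 190.4 CPM to 18.97, 75.02, 45.2 and 72.7 CPM without. The matrix protein *Thbs1* gave -2.13 ± 0.63 (edgeR q = 0.025) and lost its call without macrophage 3 d replicate 3 (-1.81, q = 0.085).

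Of 31 unfolded protein and integrated stress response genes, 5 were called lower (16.1%, against 4% of all 9436 genes) and none higher, with a median of -0.36. *Ppp1r15a*, which restores translation after stress, fell in monocytes from 285, 378, 182 and 247 CPM to 89.4, 131, 99.6 and 117 CPM and had an interaction of -1.77 ± 0.31 (SE, edgeR q = 6.5e-04). *Atf4*, the transcription factor at the centre of that response, gave -0.80 ± 0.23 (edgeR q = 0.019), a call lost without macrophage 3 d replicate 3 (-0.77, q = 0.051). Of the 28 immediate early genes, which respond to cell handling as well as to signals, 8 fell in monocytes and 1 rose. Over all 9436 genes, 5.67% fell and 11.7% rose in monocytes. In the interaction only the phosphatase *Dusp2* was called (-2.26 ± 0.58, edgeR q = 0.011), which is 3.57% lower calls against 4% of all 9436 genes. Immediate early genes had a median monocyte response of -0.56 and a median macrophage response of -0.10.

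Cytotoxic lymphocyte genes made up many of the largest lower interactions. Of the 8 T and NK cell markers among the described genes, 7 were called lower (87.5%, against 4% of all 9436 genes). *Gzma*, a granule protease, measured 184, 279, 739 and 664 CPM in control and 9.03, 210.2, 17.8 and 27.004 CPM in 3 d monocytes. Macrophages held 1.94, 1.11, 2.83 and 2.54 CPM in controls and 4.49, 3.85 and 7.07 CPM at 3 d. The interaction of *Gzma* was -4.08 ± 1.18 (SE, edgeR q = 0.025). Monocyte 3 d replicate 2 held 210.2 CPM of *Gzma*, within the control range, whereas the other three lay at 27.0 CPM or less. The same library was the highest at 3 d for the pore-forming *Prf1* (63.2, 116, 257 and 162 CPM in controls and 2.67, 52.3, 7.27 and 5.84 CPM at 3 d) and the NK receptor *Klrb1c* (31.3, 48.2, 113 and 93.8 CPM in controls and 1.82, 15.3, 4.04 and 3.34 CPM at 3 d). Their interactions were -3.78 ± 1.2005 (edgeR q = 0.036) and -4.07 ± 1.06 (edgeR q = 0.014).

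Some of these calls rested on single libraries. *Gzma* was lost without macrophage 3 d replicate 3 (-3.79, q = 0.067) or macrophage control replicate 2 (-3.88, q = 0.055). *Klrb1c* was lost without macrophage 3 d replicate 2 (-3.66, q = 0.071), and *Prf1* and *Ccl5* (-3.48 ± 1.18, edgeR q = 0.048) each in 10 of 15 left-out fits. *Gzmb* (-5.03 ± 1.17, edgeR q = 0.0089) kept its call throughout, as did the NK receptor gene *Klra9* (-5.77 ± 1.03, edgeR q = 0.0011), whose reads a near-identical gene family may share. The T and NK marker sum given above includes genes described here, *Gzmb* and *Ccl5* among them. Its like direction in monocytes is therefore no separate evidence. The part of T and NK cells in these genes was not tested. *Klrb1c* shares 413 exonic bases with *Gm44511* on the same strand.

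The B cell genes *Cd79a* and *Cd79b* were called lower, and of these *Cd79a* fell in monocytes and *Cd79b* rose in macrophages. *Cd79a*, a signalling chain of the B cell receptor, lay at 42.4, 42.4, 32.3 and 14.2 CPM in control and 86.9, 49.7 and 132 CPM in 3 d macrophages and at 14.1, 34.01, 37.6 and 27.9 CPM in control and 11.7, 10.6, 11.01 and 14.05 CPM in 3 d monocytes. Its partner chain *Cd79b* lay at 35.5, 27.6, 20.8 and 13.7 CPM in control and 62.2, 36.6 and 125 CPM in 3 d macrophages and at 50.1, 55.6, 46.2 and 44.1 CPM in control and 17.2, 36.4, 27.1 and 35.5 CPM in 3 d monocytes. Control and 3 d groups did not overlap for either of the 2 genes in either cell type, and the interactions were -2.71 ± 0.56 (edgeR q = 0.0034) and -2.36 ± 0.49 (edgeR q = 0.0032). The 8 B cell markers, *Cd79a* and *Cd79b* among them, summed to 253, 216, 168 and 93.5 CPM in control and 481, 293 and 875 CPM in 3 d macrophages, with the highest value in 3 d replicate 3, and their part in the result was not tested. Of the 6 B cell markers among the described genes, 4 were called lower (66.7%, against 4% of all 9436 genes). The transcription factors *Pax5* and *Ebf1* of the B lineage were not called, at 0.30 ± 0.62 (edgeR q = 0.78) and -0.36 ± 0.68 (edgeR q = 0.76), and both rose in monocytes, by 1.83 ± 0.47 (q = 0.0026) and 1.22 ± 0.48 (q = 0.036).

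The lowest interaction of all described genes was that of the airway secretory gene *Scgb3a1*. *Scgb3a1* and *Scgb1a1*, secretoglobins of club and goblet cells, reached 97.4, 52.8 and 16.2 CPM and 531, 260.2 and 307 CPM in 3 d macrophages, from 0.277, 1.42, 4.99 and 3.32 CPM and 16.1, 12.3, 54.9 and 55.2 CPM in controls. In monocytes they lay at 0.755, 8.67, 22.2 and 35.1 CPM in controls and 9.41, 1.66, 1.98 and 0.449 CPM at 3 d and at 34.4, 42.2, 134 and 386 CPM in controls and 66.2, 103, 33.997 and 29.1 CPM at 3 d, with wide overlap. The interactions were -6.74 ± 1.47 (edgeR q = 0.0063) and -4.76 ± 1.205 (edgeR q = 0.014), although neither single response passed, the macrophage response being 4.46 ± 1.09 (q = 0.086) and 3.40 ± 0.90 (q = 0.12). Related sequences within the family could split reads. The 14 epithelial markers, *Scgb1a1* among them, summed to 348, 374, 469 and 402 CPM in control and 1018, 709.6 and 803 CPM in 3 d macrophages, and to 1391 to 1818 CPM and 1437 to 1529 CPM in monocytes. Most of the macrophage difference in this sum came from *Scgb1a1* itself, without which it was 332 to 414 CPM in control and 449 to 496 CPM in 3 d macrophages. Of the 10 epithelial markers among the described genes, 3 were called lower (30%, against 4% of all 9436 genes) and none higher. *Cdh1* (E-cadherin) and the surfactant protein gene *Sftpb* rose in monocytes and had interactions of 1.94 ± 0.82 (edgeR q = 0.099) and 1.31 ± 0.53 (edgeR q = 0.077), *Epcam* and *Abca3* gave 0.29 ± 0.81 (edgeR q = 0.84) and 0.02 ± 0.31 (edgeR q = 0.99), and *Sftpc* had means of 30.1 CPM in control and 9.44 CPM in 3 d macrophages. The part of epithelial RNA in the result was not tested.

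Antigen presentation genes had the lowest median of the 28 lists. The 15 genes of the MHC class II presentation list had a median interaction of -1.26. Of these, 4 were called lower (26.7%, against 4% of all 9436 genes) and none higher. Among the calls, *Cd86* and *Cd40* are costimulatory genes and not class II chains. The class I list had 2 of 22 called lower (9.09%) with a median of -0.24. *Cd86*, the costimulatory ligand of CD28, stood at 6.88, 6.12, 9.05 and 7.57 CPM in control and 18.1, 16.1 and 29.7 CPM in 3 d macrophages without overlap and at 44.9 to 92.6 CPM in monocytes. The interaction of *Cd86* was -1.56 ± 0.40 (SE, edgeR q = 0.011). *Cd40* gave -1.59 ± 0.53 (edgeR q = 0.038), a call lost in 8 of the 15 left-out fits and with a block for the title number. *H2-Ob*, a brake on peptide loading in B cells, gave -2.34 ± 0.53 (edgeR q = 0.0053). The B cell sum given above moved with this list in macrophages, and its part was not tested. *H2-Q6* gave -2.10 ± 0.46 (edgeR q = 0.0046) and has near-identical neighbours in its gene cluster, so its reads may be split.

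Lysosomal genes had 7 of 52 called lower (13.5%, against 4% of all 9436 genes and 8.07% of those at 100 CPM or more in control monocytes) and none higher, with a median of -0.14. *Ctse*, an aspartic protease, was 0.943, 1.42, 0.874 and 0.467 CPM in control and 2.74, 2.27 and 3.11 CPM in 3 d macrophages. Monocytes held 38.3, 36.9, 21.1 and 22.2 CPM in controls and 22.3, 22.3, 13.1 and 22.3 CPM at 3 d, and the groups were apart in macrophages alone. The interaction of *Ctse* was -2.11 ± 0.45 (SE, edgeR q = 0.0034). *Sgsh*, which degrades heparan sulfate, gave -1.46 ± 0.36 (edgeR q = 0.0079) and shares 955 exonic bases with *Card14* on the opposite strand. The interactions of abundant members were smaller, as for *Cd68* (-0.83 ± 0.22, edgeR q = 0.012) and *Ctsb* (-0.71 ± 0.21, edgeR q = 0.022). With a block for the sample number, *Ctsb* lost its call (-0.66, q = 0.070), and without macrophage 3 d replicate 1 *Cd68* (-0.61, q = 0.058) and *Ctsb* (-0.50, q = 0.10) did.

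Chemokines were mixed. Of 17 measured, 2 were called higher (11.8%, against 6.38% of all 9436 genes) and 3 lower (17.6%, against 4%). Their median of -0.07 changed sign in 4 of the left-out fits. *Ccl4*, which attracts monocytes and T cells, stood at 5.88, 9.89, 5.4999 and 3.79 CPM in control and 17.97, 15.8 and 22.9 CPM in 3 d macrophages. Monocytes held 43.6, 63.5, 74.9 and 90.8 CPM in controls and 49.01, 29.3, 93.2 and 72.4 CPM at 3 d, and the groups were apart in macrophages alone. The interaction of *Ccl4* was -1.76 ± 0.50 (SE, edgeR q = 0.019) and was lost without macrophage 3 d replicate 3 (-1.60, q = 0.061). Of 14 chemokine receptors, 3 were called lower (21.4%, against 4% of all 9436 genes), which were *Cx3cr1*, *Ccr7* and *Cxcr4*. *Ccr7*, which guides cells to lymph nodes, was 16.6, 13.5, 14.2 and 12.5 CPM in control and 57.5, 39.04 and 71.98 CPM in 3 d macrophages. The interaction of *Ccr7* was -2.43 ± 0.70 (SE, edgeR q = 0.022), and a block for the sample number ended it (-2.75, q = 0.086), as did omission of macrophage 3 d replicate 3 (-2.21, q = 0.064). *Cxcr4*, the receptor that retains cells in bone marrow, fell in monocytes (-0.96 ± 0.25, q = 0.0029). The interaction of *Cxcr4* was -1.21 ± 0.36 (SE, edgeR q = 0.022). Its monocyte control replicate 4 stood at 85.8 CPM against 42.9 to 45.9 CPM in the other controls, and without it the interaction was -0.91 (q = 0.055). The call was also lost without macrophage 3 d replicate 2 (-1.07, q = 0.059) or macrophage control replicate 2 (-1.11, q = 0.053).

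Several alternative activation genes passed in monocytes, most of them without an interaction call. Of 35 genes on this list, 12 rose and 3 fell in monocytes, against 11.7% and 5.67% of all 9436 genes. None passed in macrophages, where 1.18% of all 9436 genes rose and 0.17% fell. In the interaction, 1 was called higher (*Socs2*, 2.86% against 6.38%) and 1 lower (*Apoe*, 2.86% against 4%). *Socs2*, an inhibitor of cytokine signals, gave 2.11 ± 0.73 (edgeR q = 0.047), a call lost with a block for the sample number (1.44, q = 0.12), in 12 of the 15 left-out fits and under 3 scalings. *Arg1*, the arginase of alternatively activated macrophages (chr10:24915221-24927484), was 8.47, 42.9, 2.48 and 2.68 CPM in control and 94.4, 9.83, 918 and 469.6 CPM in 3 d monocytes. Macrophages held 1.39, 4.45, 1.39 and 1.19 CPM in controls and 8.92, 3.16 and 27.4 CPM at 3 d. It rose in monocytes by 4.73 ± 1.21 (q = 0.0041), yet the spread between libraries was such that replicate 2 of the 3 d monocytes lay within the control range, and the interaction was 2.09 ± 1.66 (SE, edgeR q = 0.40). *Ccl24*, the eosinophil attractant eotaxin-2, stood at 10.8, 59.3, 3.43 and 8.61 CPM in control and 186, 29.4, 2319 and 1551 CPM in 3 d monocytes and at 2.86 CPM or less in macrophages. *Mmp12*, the macrophage elastase, stood at 1.01, 5.05, 9.88 and 4.25 CPM in control and 18.7, 7.496, 218 and 162 CPM in 3 d monocytes. Macrophages held 8.599, 90.6, 50.7 and 7.62 CPM in controls and 108, 70.6 and 189.9 CPM at 3 d. Again the lowest 3 d monocyte value of both genes was that of replicate 2, and their interactions were 2.26 ± 3.54 (edgeR q = 0.70) and 2.69 ± 1.51 (edgeR q = 0.21). The list had a median response of 1.02 in monocytes and 0.79 in macrophages, and its median interaction of 0.11 turned negative under 3 scalings.

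Single genes of other lists also differed. *Mfge8*, a bridge to dying cells, rose in macrophages from 12.04, 30.5, 24.004 and 12.7 CPM to 92.3, 32.7 and 84.5 CPM and overlapped in monocytes. The interaction of *Mfge8* was -2.11 ± 0.52 (SE, edgeR q = 0.010). The desaturase *Scd1* stood at 27.3, 41.7, 27.04 and 20.9 CPM in control and 67.8, 49.6 and 77.03 CPM in 3 d macrophages, apart but not past the test (1.15 ± 0.31, q = 0.093). The interaction of *Scd1* was -1.84 ± 0.44 (SE, edgeR q = 0.0074). The glucose transporter *Slc2a3* rose in macrophages from 2.22, 2.103, 2.47 and 2.49 CPM to 10.3, 5.05 and 5.22 CPM, and its interaction of -1.29 ± 0.40 (SE, edgeR q = 0.025) was lost without macrophage 3 d replicate 1 (-0.87, q = 0.13) or macrophage control replicate 2 (-1.25, q = 0.053).

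**Figure D5:**
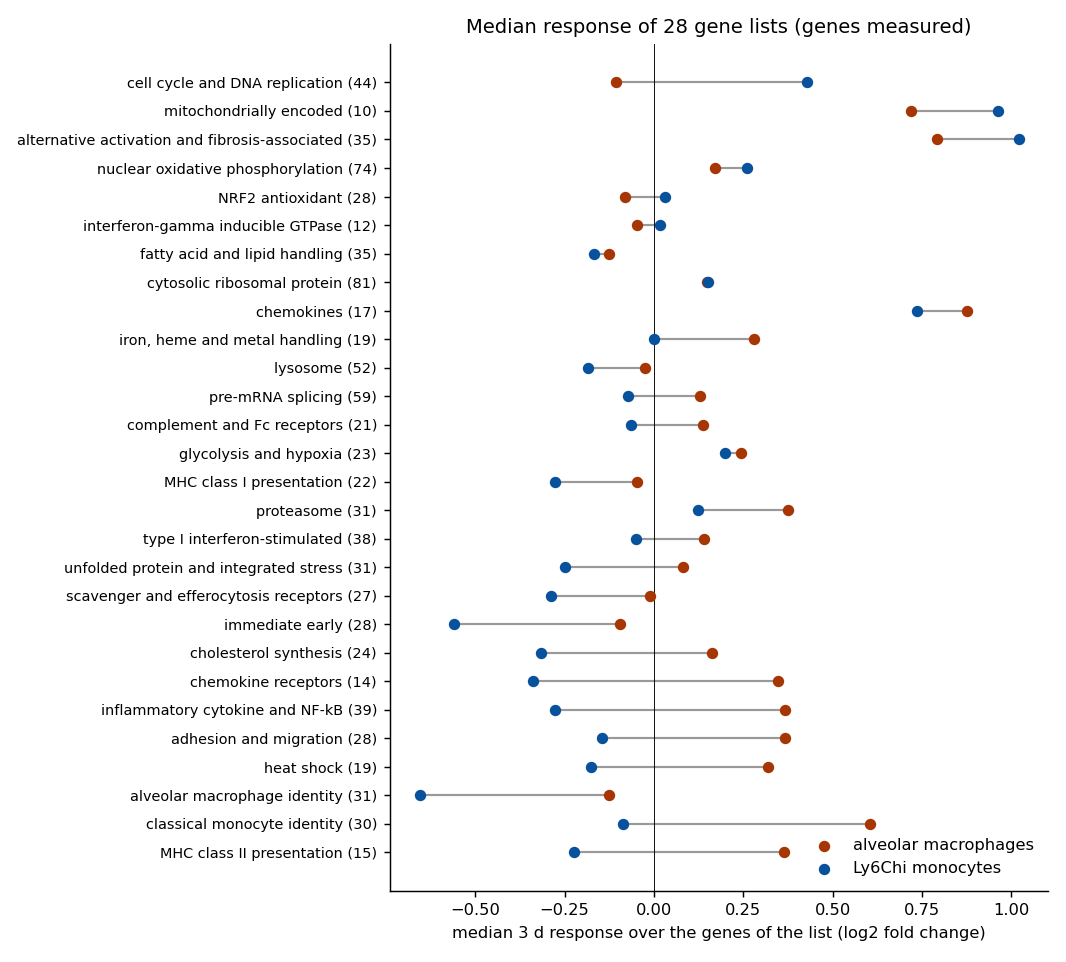
Each row is a gene list with the number of genes measured, and its points are the median 3 d response (log2 fold change) in monocytes and in macrophages. Rows are ordered by the median interaction, with cell cycle and DNA replication at the top (0.56). At the bottom are alveolar macrophage identity, classical monocyte identity and MHC class II presentation (-0.96, -1.06 and -1.26). The 10 mitochondrially encoded genes lie to the right of 0 in both cell types.

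Housekeeping lists had no interaction call. None of the 81 cytosolic ribosomal, 74 nuclear oxidative phosphorylation, 31 proteasome or 10 mitochondrially encoded genes passed in edgeR or in DESeq2, and 1, 0, 2 and 1 of them had an unadjusted p under 0.05. The lists had median interactions of 0.01, 0.07, -0.28 and 0.24, of which those of the ribosomal and oxidative phosphorylation lists turned negative under 3 other scalings and that of the mitochondrially encoded genes under DESeq2 size factors. All 10 mitochondrially encoded genes rose in monocytes and 2 rose in macrophages, with median responses of 0.96 and 0.72. Over all 9436 genes, 11.7% rose in monocytes and 1.18% in macrophages. Under the other scalings and DESeq2, 7 to 10 of the mitochondrially encoded genes rose in monocytes and 1 to 6 in macrophages. *mt-Cytb*, the cytochrome b of complex III, was 1460.3, 1363, 995 and 1535 CPM in control and 2187, 2586, 3058 and 2006 CPM in 3 d monocytes. Macrophages held 2610.0, 2498, 2190.5 and 2597 CPM in controls and 4509, 3625 and 4568 CPM at 3 d. All 3 d libraries lay above all controls in both cell types, and the interaction was 0.10 ± 0.24 (SE, edgeR q = 0.80). The alveolar macrophage identity list had a median of -0.96 with no gene called lower. In monocytes 13 of its 31 genes fell and 3 rose, against 5.67% and 11.7% of all 9436 genes. None passed in macrophages, where 1.18% of all 9436 genes rose and 0.17% fell. The sum of macrophage gate markers without *Chil3*, given above, also ran lower in 3 d monocytes, with overlap. Their part in the falls on this list was not tested. Type I interferon-stimulated genes had 3 of 38 called lower (7.89%, against 4% of all 9436 genes), none higher, and a median of -0.30.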

How the data were processed

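RNA of sorted lung monocytes and alveolar macrophages was sequenced. The authors deposited raw gene counts, 1 table per cell type. The submitters' processing notes name STAR 2.7.2c and 2.7.3a, featureCounts 1.6.3 and mouse build GRCm38 (mm10). Which STAR version made which table, and whether reads were counted by strand, is not given in the sources used here.

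Samples were grouped by their labels. The tables were joined on Ensembl identifiers, and biotypes, positions and exon overlaps were taken from GENCODE on GRCm38. Counts were tested in R 4.3.3 with edgeR 4.0.16 (quasi-likelihood, robust, 6 groups, 22 samples) after filterByExpr, which kept 26623 genes, with TMM factors from the 9436 described genes. The p-values were adjusted by Benjamini-Hochberg over all genes tested, and calls needed both an adjusted p under 0.05 and a change of more than 1.5 times. A standard error is the absolute log2 fold change over the square root of F. Levels are CPM with the TMM factors. Library depths were 10692871 to 28789639 counts, at which 3 counts equal 0.104 to 0.281 CPM. The model was also run on simulated counts with a known interaction in 200 genes. These counts did not include the broad rise of weak signal in 3 d monocytes, so they do not bear on the scaling. DESeq2 1.42.0, other scalings, filters, samples and membership rules were tried as alternatives.

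Genes to name were the cell type markers and genes picked from those called. Per direction, the picks were the 12 largest interactions, up to 6 with opposite responses and up to 3 per list. For the 12 largest, 3 d changes from the control mean could not overlap between the cell types. Such separation was thus a condition for naming these genes, not a result. Predicted and clone names were left out of the 12 and the 6. Others are named as chosen after their values were seen. Some genes that the rule picks are not reported here. The described genes and the lists were chosen with earlier results of these data known.

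At control and 3 d, monocyte and macrophage libraries with the same number in their descriptions correlated in their deviations from the group means. Pearson r over the described genes was 0.106 to 0.248 in 7 such pairs, against -0.185 to 0.117 in 21 pairs of the same time with different numbers. The 14 d libraries did not show this, with r of -0.0404 to 0.1167 in 3 pairs of the same number. In 9 pairs at 14 d with different numbers, r was -0.1844 to 0.1632. The labels do not say what the number marks. It was used as a block within time in an alternative.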

Additional observations from a re-analysis of the deposited data

Results flagged for a closer look

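The responses of the 2 cell types differed by the interaction test in 979 of the 9436 genes, as described above.

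Among 234 groups of 4 libraries, over 78 genes, 14 held a single library whose gap to its nearest neighbour exceeded the 95% critical value of Dixon's test, 0.829 of the group's range. Chance alone flags about 5% of such groups, so this number is near what chance gives. Of the 14, 4 were the same library, monocyte 3 d replicate 2, which was high for cytotoxic lymphocyte genes: *Gzma* at 210.2 CPM, *Prf1* at 52.3 CPM, *Klrb1c* at 15.3 CPM and *Ccl5* at 147 CPM. The control libraries titled replicate 2, which are other libraries, stood out for genes of alternative activation and remodelling. In control monocytes it was high for *Arg1* at 42.9 CPM and *Ccl24* at 59.3 CPM, and in control macrophages for *Arg1* at 4.45 CPM and *Timp1* at 9.21 CPM.

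The remaining 6 were spread over genes and libraries. Monocyte 3 d replicate 3 was high for *Trio* at 93.3 CPM and *Csf1* at 29.1 CPM and low for *Ctse* at 13.1 CPM. In control monocytes, replicate 2 was high for *Stat4* at 17.6 CPM, replicate 4 high for *Cxcr4* at 85.8 CPM and replicate 3 low for *Ms4a4c* at 739 CPM.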

How the results depend on the processing

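The count of 979 interaction calls fell to 602 (416 higher, 186 lower) when edgeR's glmTreat tested against a fold of 1.5, where monocyte calls numbered 886 and macrophage calls 38. With a mean of 10 CPM over the 15 samples as the limit, 337 genes were called higher. Among the 6684 genes at 10 CPM in both controls, a limit added after the data were seen, 280 were called (83 higher, 197 lower), with 561 monocyte and 40 macrophage calls. TMM factors from all tested genes gave 784 lower calls, DESeq2 size factors 969 lower and 2602 monocyte calls, and DESeq2's own test 313 macrophage calls. All 377 lower and 430 of the 602 higher genes were also called with TMM factors from all tested genes, and 601 higher and all 377 lower by DESeq2.

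Leaving out each library in turn gave 624 to 1073 interaction calls (411 to 648 higher, 213 to 440 lower), 1401 to 1873 monocyte calls and 36 to 389 macrophage calls. The lowest interaction counts came without macrophage 3 d replicate 3 (411 and 213). Macrophage calls were 389 without macrophage 3 d replicate 2, 43 without replicate 1 and 36 without replicate 3, and 82, 74 and 50 without macrophage control replicates 1, 3 and 4. The causes were not tested. Monocyte 3 d replicate 2, which held most T and NK cell signal, moved no count by over 1.5 times.

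With the description number as a replicate block, 781 genes were called (486 higher, 295 lower), of which 453 and 259 were also called without it. That block ended 21 of the 131 named calls, given in the report for the genes described there, and reversed none. The title number did not pair control with 3 d libraries (r -0.464 to 0.246 in monocytes, -0.335 to 0.123 in macrophages), and as a replicate block it gave 1112 interaction calls (679 higher, 433 lower), 1651 monocyte and 113 macrophage calls.

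Over all alternatives, the 131 named genes gave 3133 values on the same side of the threshold and 404 of the same direction past it no longer, with 0 reversed, and 68 genes kept their call in every one. Of 756 list medians, 33 moved by more than the spread set for them. Depth limits statements on genes near 3 counts in control monocytes, and 3 macrophage libraries at 3 d limit the rest.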

Other observations

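Some genes, named after their values were seen, passed in the same direction in both cell types. *Igf1r*, the insulin-like growth factor receptor, rose in monocytes from 4.904, 3.95, 4.88 and 7.01 CPM to 30.4, 33.98, 33.6 and 32.3 CPM and in macrophages from 2.33, 2.23, 3.34 and 2.697 CPM to 8.05, 5.69 and 7.07 CPM, without overlap, and was the only gene that rose in both with a higher interaction (1.26 ± 0.30, SE, edgeR q = 0.0061). *Treml4*, a receptor of patrolling monocytes, fell in both, in monocytes from 327, 305, 421 and 457 CPM to 55.3, 124, 78.1 and 189 CPM and in macrophages from 26.5, 19.9, 32.6 and 19.7 CPM to 4.14, 12.1 and 3.37 CPM. The interaction of *Treml4* was 0.15 ± 0.52 (edgeR q = 0.88). *Fcgr4*, an activating Fc receptor, also fell in both, from 129.9, 141, 241 and 265 CPM to 49.3, 63.6, 67.6 and 53.9 CPM in monocytes and from 151, 152, 165 and 136 CPM to 72.1, 82.8 and 55.9 CPM in macrophages. In none of these comparisons did control and 3 d libraries overlap.

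*Gata2* and *Ms4a2*, a transcription factor and the IgE receptor beta chain of mast cells and basophils, reached 33.1, 15.7 and 27.4 CPM and 18.1, 7.45 and 14.98 CPM in 3 d macrophages, from 1.83, 1.61, 1.95 and 1.504 CPM and 0.666, 0.557, 0.514 and 0.311 CPM. In monocytes *Gata2* lay at 0.964, 0.549, 1.54 and 1.36 CPM in controls and 2.67, 2.27, 2.13 and 2.63 CPM at 3 d and *Ms4a2* at 0.335, 0.439, 0.0394 and 0.0401 CPM in controls and 2.67, 2.396, 1.76 and 2.502 CPM at 3 d, so both genes rose in both cell types. The interaction was -2.75 ± 0.65 (edgeR q = 0.0066) for *Gata2* and -1.23 ± 0.91 (edgeR q = 0.35) for *Ms4a2*, and neither gene was on a list used here.

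The libraries titled number 2 lay at an end of their group for *Arg1* in both cell types. At 3 d they held the lowest values, 9.83 CPM in monocytes and 3.16 CPM in macrophages, and in controls the highest, 42.9 and 4.45 CPM. *Ccl24* in monocytes and *Timp1* in both cell types followed the same order, with *Timp1* at 0.0838, 1.76, 0.473 and 0.721 CPM in control and 4.703, 1.72, 40.5 and 27.97 CPM in 3 d monocytes. Macrophages held 1.28, 9.21, 0.411 and 1.504 CPM in controls and 16.3, 2.46 and 36.3 CPM at 3 d. The control and 3 d libraries titled number 2 carry different description numbers, 2 and 6. The labels do not say whether monocyte and macrophage libraries of the same time and number came from the same mouse.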
